A study of Homo sapiens with 6 samples.

Results

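The genes described here are 10 genes of the epithelial-mesenchymal transition (EMT), taken by symbol from the 60604 genes of the count tables. They are the transcription factors SNAI1, SNAI2, ZEB1, ZEB2 and TWIST1, the epithelial adhesion genes CDH1 and EPCAM, and the genes CDH2, VIM and TGFBI, which are read as mesenchymal markers. Total RNA of AGS, an established line of human gastric adenocarcinoma cells, was sequenced. Treated cells were given indomethacin at 0.5 mM for 24 h (3 libraries). This non-steroidal anti-inflammatory drug inhibits cyclooxygenases. The control cells carried the label 0 mM indomethacin (3 libraries), and the labels give no time for them. The cells of both groups grew in DMEM with fetal bovine serum and antibiotics. The factors were set against their usual markers.

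EMT is the change by which epithelial cells loosen their junctions and take on features of migrating mesenchymal cells. SNAIL and ZEB factors are zinc finger repressors that bind E-box motifs in the E-cadherin promoter, while TWIST1 is a basic helix-loop-helix factor that acts with E protein partners. In the usual order of events E-cadherin and EpCAM fall and N-cadherin and vimentin appear as these factors rise. The ZEB factors and the microRNAs of the miR-200 family repress each other, and this loop is among the best-known switches between the epithelial and the mesenchymal state.

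The E-box that SNAIL and ZEB factors bind reads CACCTG on one strand and CAGGTG on the other. It was searched on both strands in the RefSeq promoter windows of GRCh38.p14, each 250 bases before to 50 bases after an annotated start. Windows were matched for ZEB1 (7 windows), VIM (1), TGFBI (1), ZEB2 (1) and CDH2 (2), and not for SNAI1, SNAI2, TWIST1, CDH1 and EPCAM. Those of ZEB1 and VIM are shown because these were the factor and the marker on chromosome 10 that moved in opposite directions. Of the 7 ZEB1 windows, the one with the most E-boxes is shown. Capitals mark the E-box.
ZEB1 (window 3 of 7, chr10:31318966-31319265, plus strand): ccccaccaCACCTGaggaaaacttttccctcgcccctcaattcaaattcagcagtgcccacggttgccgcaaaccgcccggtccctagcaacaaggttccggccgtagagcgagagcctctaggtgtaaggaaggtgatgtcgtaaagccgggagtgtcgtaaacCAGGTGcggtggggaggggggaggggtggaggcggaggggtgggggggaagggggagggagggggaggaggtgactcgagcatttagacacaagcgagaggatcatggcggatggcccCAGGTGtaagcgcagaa
VIM (chr10:17227991-17228290, plus strand): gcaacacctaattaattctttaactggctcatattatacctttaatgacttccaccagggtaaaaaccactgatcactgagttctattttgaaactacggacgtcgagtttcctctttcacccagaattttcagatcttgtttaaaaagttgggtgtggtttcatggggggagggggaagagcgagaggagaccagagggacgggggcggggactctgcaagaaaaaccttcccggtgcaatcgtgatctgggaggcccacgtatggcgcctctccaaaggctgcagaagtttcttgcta
The ZEB1 window held 3 E-boxes, another ZEB1 window held 1, and the other 5 held none. The VIM, TGFBI, ZEB2 and CDH2 windows held none. Of all 35116 windows, 7231 (20.6%) held at least 1. Counted by gene, 6571 of 27305 (24.1%) had an E-box in any window. A gene with 7 windows has more room for a match than a gene with 1. A match is a run of letters and not a measured binding site.

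The mature miR-200 family, with the seed (bases 2 to 8) in capitals, is shown because its seeds pair with the 3′ ends of the ZEB transcripts. The sequences are those of RefSeq, grouped by seed.
miR-200b-3p: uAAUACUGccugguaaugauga
miR-200c-3p: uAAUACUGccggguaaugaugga
miR-429: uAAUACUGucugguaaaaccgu
miR-200a-3p: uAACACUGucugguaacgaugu
miR-141-3p: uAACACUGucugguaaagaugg
The first 3 share the seed AAUACUG and the last 2 share AACACUG. In the 3′ untranslated region of ZEB1 (2549 bases, GENCODE 29 on GRCh38), the reverse complement of the first seed, CAGTATT, occurred 6 times and that of the second, CAGTGTT, 3 times. The 3 sites below give both kinds, in capitals.
ZEB1 site 1 (chr10:31527618-31527640, plus strand): attgttttatcttatCAGTATTa
ZEB1 site 2 (chr10:31527712-31527734, plus strand): atgctaaatccgcttCAGTATTt
ZEB1 site 7 (chr10:31528031-31528053, plus strand): caaaatcatcagaatCAGTGTTt
ZEB2 held 5 and 4 matches in 5370 bases. TGFBI and SNAI2 each held 1 match to the first seed, and SNAI1, TWIST1, CDH1, CDH2, VIM and EPCAM held none of either. At least 1 match to the first seed was found in 15.9% of the 19101 genes with such a region, and at least 1 to the second in 18.0%. More than 5 matches were found in 0.0157% of these genes for the first seed and in 0.0314% for the second. A longer region has more room for a match. The mature microRNAs themselves were not measured here.

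Indomethacin libraries had total counts of 20094302, 19323461 and 17535435, against 20983189, 23221077 and 21919853 in control libraries. Mitochondrially encoded genes took 16.7% to 19.7% of counts in the indomethacin libraries and 22.8% to 26.8% in the control libraries. Levels are TMM-scaled CPM (counts relative to library size), so that 3 counts in a library came to between 0.128 and 0.180 CPM. Such floors cover counting error only. Whether the libraries of a group stem from separate cultures is not in the labels, and the p-values may reflect only technical spread among them. In a bulk sample, fewer cells of a type and less RNA per cell cannot be told apart.

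Markers of simple epithelium were abundant in both groups, with a summed level of 2802 to 3094 CPM in the indomethacin and 3160 to 3693 CPM in the control libraries over 6 of 6 genes detected. KRT8, KRT18 and KRT19, keratins of simple epithelium, made up most of it. The fibroblast markers DCN, LUM, COL1A2 and COL3A1 averaged at most 0.178 CPM in either group. PDGFRA and PDGFRB, also on the fibroblast list, were read at 6.05 and 0.104 CPM in indomethacin libraries and at 37.6 and 2.52 CPM in control libraries. The summed endothelial markers reached at most 0.523 CPM. Of the 5 immune markers, PTPRC, CD3E, MS4A1 and CD68 averaged at most 0.233 CPM, and LYZ, the lysozyme gene, stood at 122 CPM in indomethacin against 1102 CPM in control libraries. On the smooth muscle list DES, the intermediate filament gene desmin, averaged 0.672 CPM in indomethacin and 5.92 CPM in control libraries. MYH11, a smooth muscle myosin gene, averaged 1.70 CPM with indomethacin and 1.03 CPM in control, with groups that did not overlap, and did not pass (adjusted p = 0.086 in edgeR's test, Benjamini-Hochberg). MYH11 shares 1063 of its 17729 exonic bases with NDE1 on the other strand. NDE1 had 730, 779 and 817 counts with indomethacin and 387, 462 and 550 in control. The other 2 genes of the smooth muscle list, ACTG2 and CNN1, averaged at most 0.175 CPM. What part other cell types had in the results below was not tested.

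SNAI1 and ZEB1 rose with indomethacin, and so did the epithelial gene CDH1, while the mesenchymal markers VIM and TGFBI and the epithelial gene EPCAM fell. SNAI2 and TWIST1 had no count in any library, and ZEB2 and CDH2 stayed at or below 3 counts in each. Of the 10 genes, 6 had enough counts to be tested, and 6 of these 6 had a Benjamini-Hochberg adjusted p under 0.05 in edgeR's quasi-likelihood test, 3 higher and 3 lower. Of all 17200 genes tested 61.6% passed, 30.6% higher and 31.0% lower, so a call by itself sets no gene apart here. The groups did not overlap for these 6 genes, against 67.0% of all genes tested. The members' median log2 fold change was 0.41, and that of all genes tested was 0.04. VIM reached the level that admits a gene to the test in 1 of 3 indomethacin libraries and in 3 of 3 control libraries, and the other 5 reached it in every library.

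**Figure D1:**
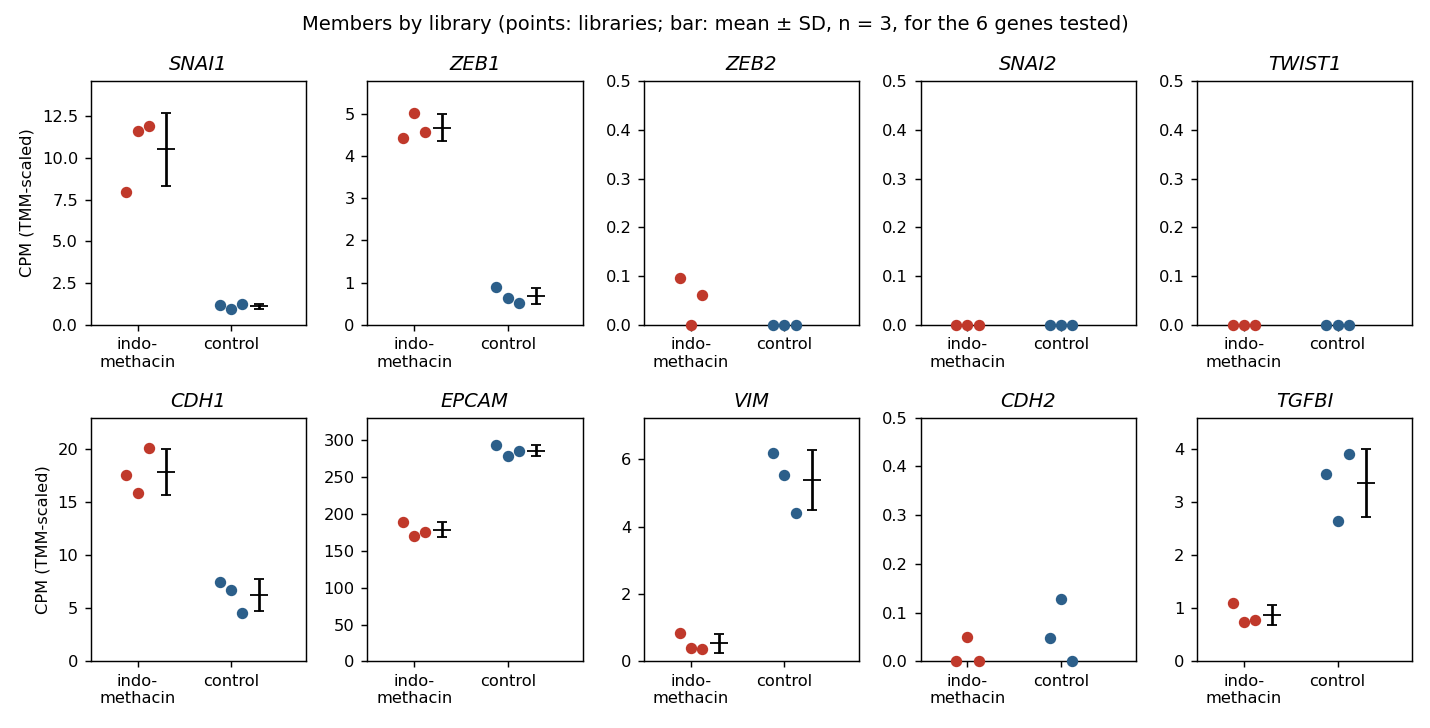
Level of each of the 10 genes in CPM (vertical axes, each from 0) in the 3 indomethacin and the 3 control libraries, one point a library. Bars give the mean ± SD (n = 3) for the 6 genes tested. SNAI1, ZEB1 and CDH1 lie higher and VIM, TGFBI and EPCAM lower with indomethacin, with no overlap, and SNAI2 and TWIST1 lie at 0.

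SNAI1, the gene of the repressor SNAIL, lies on chromosome 20 (hg38, chr20:49982980-49988886, plus strand, ENSG00000124216). It had 168, 234 and 198 counts in the indomethacin libraries, against 24, 22 and 26 in the control libraries. In CPM these are 7.99, 11.6 and 11.9 with indomethacin and 1.18, 0.938 and 1.22 in control. Every indomethacin library lay above every control library, and indomethacin replicate 1 was the lowest of its group. SNAI1 averaged 10.5 ± 2.19 CPM with indomethacin and 1.11 ± 0.152 CPM in control (SD, n = 3 each), a 9.42-fold rise (log2 fold change 3.24, SE 0.24, Benjamini-Hochberg adjusted p = 6.4e-08 with edgeR's quasi-likelihood test). Of all genes tested, 3.47% changed by more in either direction. The processed pseudogene SNAI1P1 had no count in any library.

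ZEB1, whose zinc finger protein represses CDH1 and the miR-200 genes, spans chr10:31318495-31529814 on the plus strand (ENSG00000148516). Its counts were 93, 101 and 76 with indomethacin and 18, 15 and 11 in control. The level was 4.42, 5.02 and 4.57 CPM in the indomethacin libraries and 0.883, 0.640 and 0.516 CPM in the control libraries. The indomethacin libraries lay close together, well above the control ones. The rise was 6.85-fold (4.67 ± 0.314 CPM with indomethacin and 0.680 ± 0.187 CPM in control, SD, n = 3 each; log2 fold change 2.78, SE 0.29, adjusted p = 1.6e-06 in edgeR's quasi-likelihood test with Benjamini-Hochberg adjustment). The antisense gene ZEB1-AS1 shares 396 of the 8650 exonic bases of ZEB1, and the strand setting of the counting is not given in the sources used here, so reads of the pair may be mixed. ZEB1-AS1 had 120, 103 and 89 counts with indomethacin and 31, 31 and 32 in control, a log2 fold change of 1.89 (SE 0.23, adjusted p = 7.0e-06 in the same edgeR fit).

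The other factors were close to silent. SNAI2, which codes for SLUG on chromosome 8, and TWIST1 on chromosome 7 had 0 counts in all 6 libraries, which allows up to 0.180 CPM with indomethacin and up to 0.147 CPM in control in the library with the highest floor. ZEB2 on chromosome 2, the close relative of ZEB1, had 2, 0 and 1 counts with indomethacin and 0 in each control library. No fold is given for them, since both groups lie at or under the floor of 3 counts a library. Any difference in these 3 factors was not detectable at this depth.

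CDH1 codes for E-cadherin, the adhesion protein of epithelial junctions, and lies at chr16:68737292-68835537 on the plus strand (ENSG00000039068). Its counts were 371, 319 and 335 with indomethacin and 153, 159 and 97 in control. The levels were 17.6, 15.9 and 20.1 CPM in the indomethacin libraries and 7.50, 6.78 and 4.55 CPM in the control libraries. All 3 indomethacin libraries were above all 3 control libraries, of which replicate 3 was the lowest. CDH1 thus rose 2.84-fold together with SNAI1 and ZEB1 (17.9 ± 2.14 CPM with indomethacin, 6.28 ± 1.54 CPM in control, SD, n = 3 each; log2 fold change 1.51, SE 0.18, Benjamini-Hochberg adjusted p = 8.0e-06 with edgeR's quasi-likelihood test). These values are of RNA, and E-cadherin protein was not measured here. Whether this RNA codes for an intact protein in AGS cells was not tested. Per kilobase of exon, CDH1 lay above 33.1% of the genes tested in control and above 53.7% with indomethacin.

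EPCAM, the gene of the epithelial cell adhesion molecule, was by far the most abundant of the 10 (chr2:47345158-47387601, plus strand, ENSG00000119888). It had 190, 170 and 175 CPM in the indomethacin libraries and 294, 278 and 285 CPM in the control libraries. The groups were tight and did not overlap. It fell 1.60-fold (178 ± 10.2 CPM with indomethacin and 286 ± 7.73 CPM in control, SD, n = 3 each; log2 fold change -0.68, SE 0.10, Benjamini-Hochberg adjusted p = 4.6e-05 with edgeR's quasi-likelihood test). This was a modest change beside those of the other members, and 48.9% of all genes tested changed by more. CDH1 and EPCAM, both read as epithelial adhesion genes, therefore moved in opposite directions.

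VIM codes for vimentin, the intermediate filament protein of mesenchymal cells, and lies at chr10:17228241-17237593 on the plus strand (ENSG00000026025). It had 18, 8 and 6 counts with indomethacin and 126, 130 and 94 in control. The levels were 0.856, 0.398 and 0.361 CPM in the indomethacin libraries and 6.18, 5.55 and 4.41 CPM in the control libraries. The highest indomethacin library stood far below the lowest control library. VIM fell 9.70-fold (0.538 ± 0.276 CPM with indomethacin and 5.38 ± 0.896 CPM in control, SD, n = 3 each; log2 fold change -3.28, SE 0.33, Benjamini-Hochberg adjusted p = 1.3e-06 with edgeR's quasi-likelihood test). The size of this fold rests on few counts in the indomethacin libraries. VIM-AS1 shares 641 of the 5176 exonic bases of VIM on the other strand, and its own counts were 8, 3 and 2 with indomethacin against 26, 34 and 30 in control.

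TGFBI, a secreted matrix protein named for its induction by TGF-beta, lies at chr5:136028988-136063818 on the plus strand (ENSG00000120708). It had 23, 15 and 13 counts with indomethacin and 72, 62 and 83 in control, or 1.09, 0.746 and 0.781 CPM against 3.53, 2.65 and 3.89 CPM. The indomethacin libraries all lay below the control libraries. The fall was 3.80-fold (0.873 ± 0.191 CPM with indomethacin and 3.36 ± 0.643 CPM in control, SD, n = 3 each; log2 fold change -1.92, SE 0.30, Benjamini-Hochberg adjusted p = 8.4e-05 with edgeR's quasi-likelihood test). CDH2 on chromosome 18, the gene of N-cadherin, which takes the place of E-cadherin in the usual course of EMT, had 0, 1 and 0 counts with indomethacin and 1, 3 and 0 in control. It was not tested, and no fold is given.

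Set on a scale per kilobase of exon, the order of the genes changed with treatment. In indomethacin libraries EPCAM stood at 73.3 CPM per kilobase, followed by SNAI1 at 6.16, CDH1 at 2.94, ZEB1 at 0.540, TGFBI at 0.113 and VIM at 0.104. In control libraries EPCAM stood at 118 CPM per kilobase, followed by VIM at 1.04, CDH1 at 1.03, SNAI1 at 0.652, TGFBI at 0.435 and ZEB1 at 0.0786. TGFBI and VIM overlapped between libraries with indomethacin, as did VIM and CDH1 in control, so neither pair can be ranked. The other neighbours in either order did not overlap between libraries. SNAI1 and CDH1 in control were close, with at most 0.715 for SNAI1 and at least 0.749 for CDH1.

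**Figure D2:**
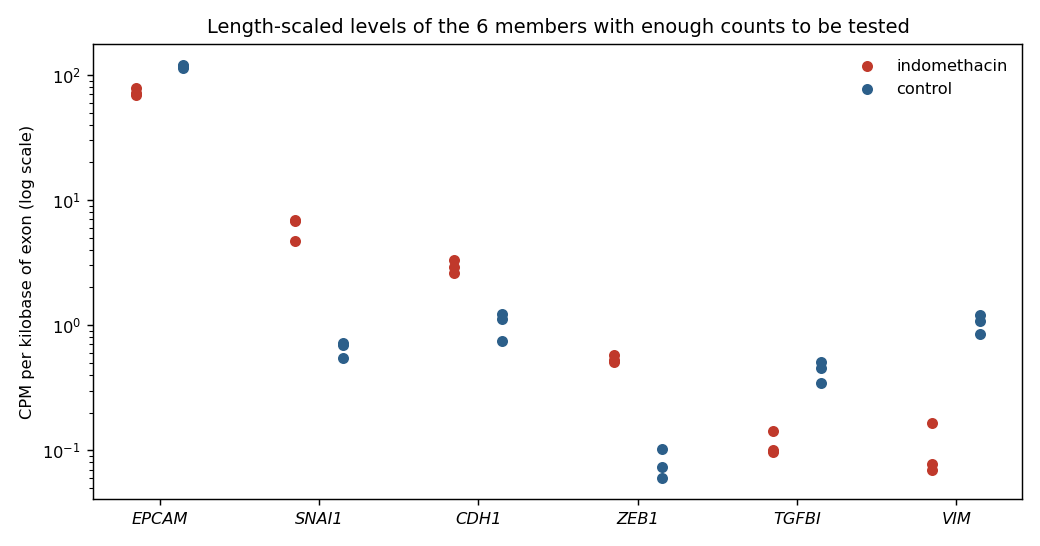
Levels of the 6 tested genes in CPM per kilobase of exon (log axis), one point a library, with indomethacin left of control for each gene. SNAI1 lies above CDH1 with indomethacin (means 6.16 and 2.94) and below it in control (0.652 and 1.03), and VIM lies beside TGFBI at the bottom with indomethacin and level with CDH1 in control.

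Ratios within a library do not depend on how libraries are scaled, and are given without a test. The ratio of SNAI1 to CDH1, per kilobase, was 1.61, 2.61 and 2.11 with indomethacin and 0.559, 0.493 and 0.955 in control, so that SNAI1 rose by more than CDH1 (3.23-fold in the ratio). That of ZEB1 to CDH1 was 0.176, 0.222 and 0.159 with indomethacin and 0.0826, 0.0663 and 0.0797 in control (2.43-fold). Both repressors thus gained on their textbook target although the target rose too. The ratio of VIM to CDH1, often read as a mesenchymal to epithelial index, was 0.0570, 0.0294 and 0.0210 with indomethacin and 0.967, 0.960 and 1.14 in control, which is 31.1-fold lower with indomethacin. The ratio of EPCAM to CDH1 was 26.9, 26.7 and 21.8 with indomethacin and 97.9, 103 and 156 in control. The ratio of SNAI1 to VIM was 100-fold higher with indomethacin and that of ZEB1 to VIM 75.4-fold higher, both on the few VIM counts given above. The size of the 31.1-fold difference in the ratio of VIM to CDH1 rests on the same few counts.

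**Figure D3:**
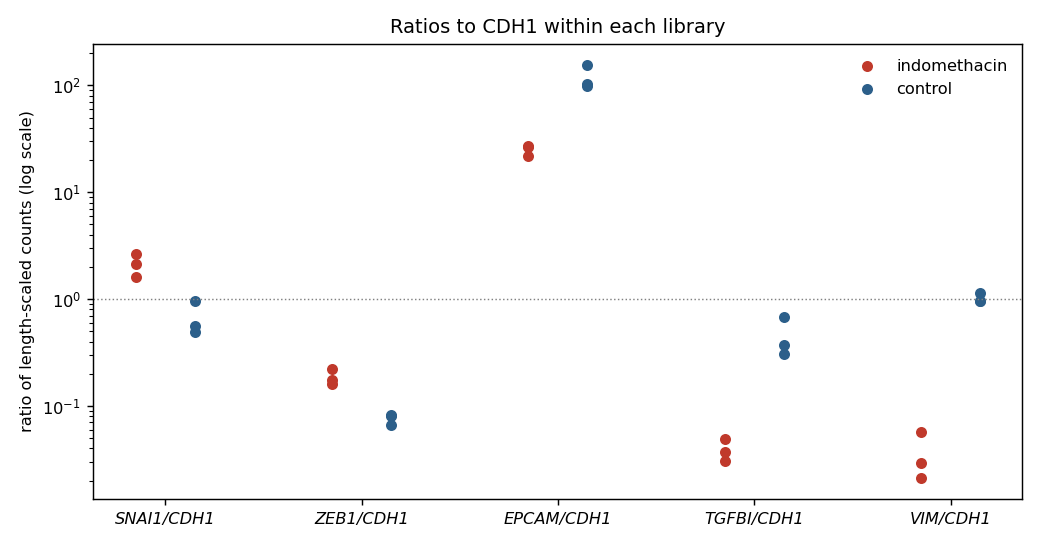
Ratio of 5 genes to CDH1 in each library, from counts per kilobase (log axis, dotted line at 1), with indomethacin left of control. The ratios of SNAI1 and ZEB1 are higher and those of EPCAM, TGFBI and VIM lower with indomethacin, and no ratio overlaps between the groups.

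Around these genes, 12 lists of related genes were read from the same fit, and their directions were mixed. Counts below are of genes with a Benjamini-Hochberg adjusted p under 0.05 in edgeR's quasi-likelihood test, to be read against the 61.6% of all genes that passed, and values are log2 fold changes, indomethacin over control. Of 8 other factors known to promote EMT, 4 were tested, of which 1 rose and 2 fell (list median -0.43). FOSL1, a subunit of the AP-1 factor, rose by 2.13 (25.2 ± 3.68 CPM with indomethacin and 5.75 ± 1.01 CPM in control, SD, n = 3 each). SOX4, a high mobility group factor, fell by 1.25, and SNAI3, the lesser known SNAIL relative, fell by 1.27 at 0.658 CPM with indomethacin and 1.59 CPM in control. SNAI3 overlaps SNAI3-AS1 over 177 of its 1740 exonic bases and is uncertain. KLF8 had a log2 fold change of 0.40 and did not pass (adjusted p = 0.46 in edgeR's test). TWIST2 and PRRX1 had no count in any library.

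TWIST factors pair with E proteins, and Id proteins hold E proteins back. Of the 7 genes on this list 6 were tested, 2 higher and 3 lower (median -0.27). The E protein gene TCF4, which is also counted among the inducers of EMT, fell by 4.08 to 0.322 CPM with indomethacin, against 5.14 CPM in control, on 2, 3 and 12 counts with indomethacin and 103, 134 and 99 in control. TCF4 entered the test through its control level, and its indomethacin counts are too few to size the fall. Without indomethacin replicate 3 the fitted value was -5.35, on 2 and 3 counts. TCF3, the gene of E12 and E47, fell by 0.82 and ID2 fell by 1.51. TCF12 passed at 0.28 and lost the call when any library other than control replicate 2 was left out, with DESeq2, with RLE factors, with no filter and without mitochondrially encoded genes. ID1 stood at 1.07 with groups that overlapped, since control replicate 1 had 1090 counts against 309 and 313 in the other 2, and it was 1.98 without that library. It lost the call without indomethacin replicate 2, without either other control library and with DESeq2.

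SNAIL and ZEB factors repress through corepressors. Of 15 such genes 15 were tested, 2 higher and 8 lower (66.7% called, median -0.32). AJUBA, a LIM protein that bridges SNAIL to repressors, fell by 2.01 (46.4 ± 4.41 CPM with indomethacin and 187 ± 31.0 CPM in control, SD, n = 3 each). KDM1A, the histone demethylase that SNAIL recruits, fell by 1.26, and the deacetylase gene HDAC2 fell by 1.09. RCOR1, the CoREST partner of KDM1A, rose by 1.22. WTIP, a relative of AJUBA, rose by 0.96 and lost the call without indomethacin replicate 2. Of 12 genes that act on SNAIL protein by phosphate groups or ubiquitin, 11 were tested, 4 higher and 2 lower (54.5% called, median 0.12). The ubiquitin ligase subunits FBXW7 and FBXO11, which are known to promote loss of SNAIL protein, rose by 1.34 and 0.74. FBXO11 shares 3640 of 12759 exonic bases with MSH6 on the other strand. LATS2, a kinase of the Hippo pathway, passed at 0.37 and lost the call when any library other than indomethacin replicate 2 was left out, with DESeq2 and with no filter. The phosphatase gene CTDSP1 fell by 0.58 and the kinase gene PAK1 by 0.34, a call lost with upper-quartile scaling.

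**Figure D4:**
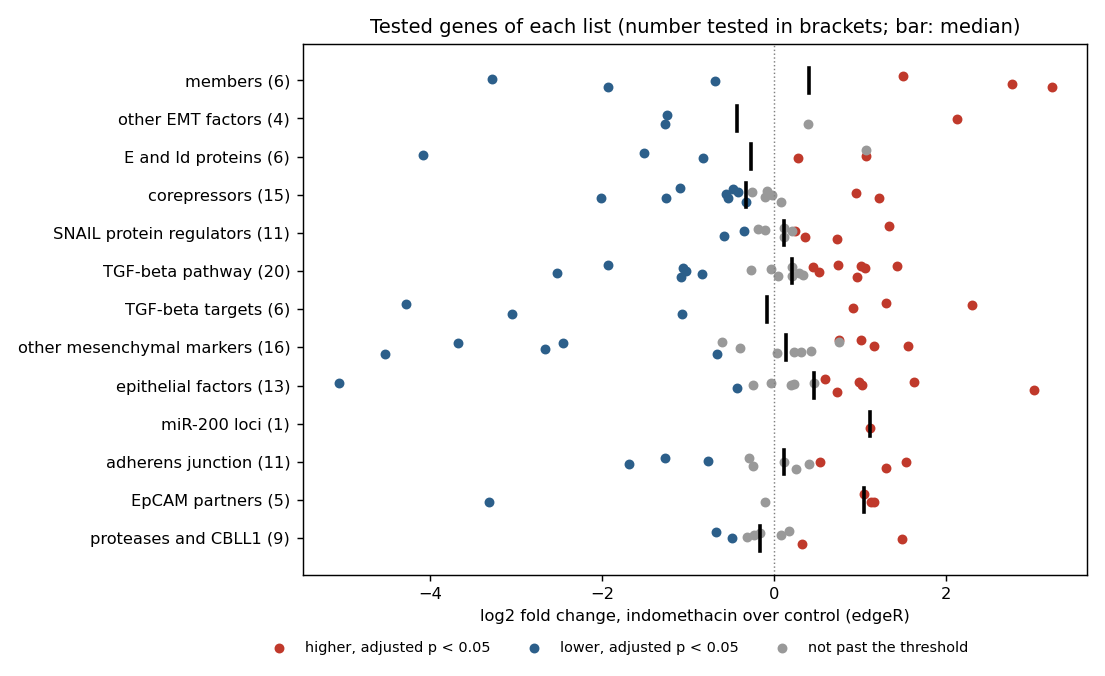
Log2 fold change, indomethacin over control, of every tested gene of the members and of 12 related lists (rows, number tested in brackets), with colour for the call and a bar at the median. The medians lie between -0.43 and 1.12, and every list with more than 1 tested gene holds genes called in both directions.

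TGF-beta is the classic inducer of EMT, and its pathway was split. Of 22 ligands, latent binding proteins, receptors, SMADs and inhibitors, 20 were tested, 7 higher and 6 lower (65.0% called, median 0.22). The ligand gene TGFB1 rose by 1.06 and TGFB3 fell by 2.52. TGFB3 averaged 0.697 ± 0.510 CPM with indomethacin and 4.13 ± 0.699 CPM in control (SD, n = 3 each). Its counts were 27, 9 and 6 with indomethacin and 91, 108 and 71 in control. TGFB3 entered the test through its control level, and its indomethacin counts are too few to size the fall. Without indomethacin replicate 1 the fitted value was -3.35, on 9 and 6 counts. TGFB1 shares 215 of 3264 exonic bases with HNRNPUL1 on the other strand, which had up to 7018 counts. LTBP4, which holds the ligand in the matrix, rose by 1.43. The receptor gene TGFBR2 fell by 1.02 to 95.2 ± 16.9 CPM with indomethacin, against 194 ± 28.3 CPM in control (SD, n = 3 each).

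Among the inhibitors, the ubiquitin ligase gene SMURF1 and the corepressor gene TGIF1 rose by 0.97 and 1.02. SMURF1 shares 735 of 6282 exonic bases with TRRAP on the other strand. The decoy receptor gene BAMBI fell by 1.92, and the inhibitory SMAD genes SMAD6 and SMAD7 fell by 1.08 and 1.06. SMAD3, which carries the signal, rose by 0.45. TGFB1, TGFB3, SMAD3 and SMAD7 were chosen for mention after their values were seen. Of 7 genes commonly raised by TGF-beta, 6 were tested, 3 higher and 3 lower (median -0.07). JUNB, an AP-1 subunit, rose by 1.31 (64.7 ± 16.5 CPM with indomethacin, 26.1 ± 0.434 CPM in control, SD, n = 3 each), with 259 of its 1830 exonic bases shared with HOOK2 on the other strand, and the helix-loop-helix factor gene BHLHE40 rose by 0.92. The matricellular genes CCN2 and THBS1 fell by 4.28 and 3.05, with CCN2 at 3.32 ± 0.317 CPM with indomethacin and 64.8 ± 23.4 CPM in control (SD, n = 3 each). CCN1 fell by 1.07, and it stood at -0.43 and lost the call without control replicate 1, as it also did without indomethacin replicate 2 and with limma-voom. These genes thus moved both ways, as TGFBI fell with CCN2 and THBS1 while JUNB and BHLHE40 rose.

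**Figure D5:**
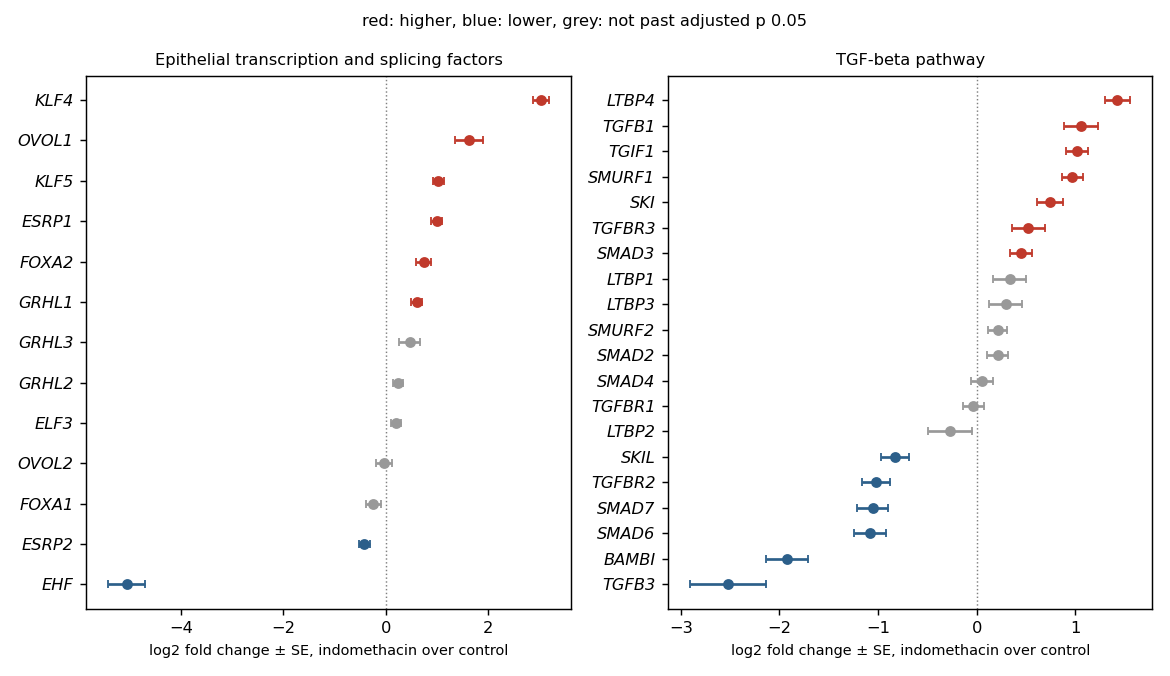
Log2 fold change ± SE, indomethacin over control, of the 13 tested epithelial transcription and splicing factors (left) and of the 20 tested genes of the TGF-beta pathway (right), in order of size. KLF4 is the highest at 3.02 and EHF the lowest at -5.06 on the left, and LTBP4 (1.43) and TGFB3 (-2.52) are the ends on the right. The values of EHF and TGFB3 rest on few indomethacin counts and do not size the fall.

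Among 27 other mesenchymal matrix, cytoskeletal and surface markers, 16 were tested, 4 higher and 5 lower (56.2% called, median 0.14). The other 11 had too few counts, and those named here went both ways. TNC, the matrix protein tenascin-C, had 8, 15 and 7 counts with indomethacin and 0, 1 and 2 in control. COL6A2 had 9, 7 and 13 against 1, 2 and 3, and VCAN had 3, 9 and 5 against 2, 2 and 3. Among these 11 genes only TNC, COL6A2 and VCAN had groups that did not overlap, and all were higher with indomethacin. In the other direction, COL5A1 had 0, 3 and 1 counts with indomethacin and 2, 8 and 11 in control. SPARC had 0, 3 and 0 against 9, 1 and 3, with groups that overlapped for both. PDGFRB, a receptor of platelet-derived growth factor, fell to 3, 1 and 2 counts with indomethacin, against 66, 50 and 47 in control. It entered the test through its control level, and its indomethacin counts are too few to size the fall. S100A4, a calcium-binding protein of motile cells, fell by 3.67 to 7.61 ± 1.21 CPM with indomethacin, against 97.3 ± 31.1 CPM in control (SD, n = 3 each). TAGLN, the actin-binding protein transgelin, fell by 2.45, and 2233 of its 6550 exonic bases overlap PCSK7 on the other strand. PDGFRA fell by 2.66, or by 3.30 without indomethacin replicate 3, and the membrane protease gene MMP14 fell by 0.66. The collagen crosslinking enzyme gene LOXL2 rose by 1.56 and the collagen genes COL5A2 and COL1A1 by 1.17 and 1.02. LOXL2 shares 120 of 5985 exonic bases with ENTPD4 on the same strand, which had 1032 to 1423 counts a library. COL1A1 averaged 10.0 ± 0.950 CPM with indomethacin and 4.93 ± 1.31 CPM in control (SD, n = 3 each). AXL, a receptor kinase, passed at 0.76 and lost the call without indomethacin replicate 2 and without control replicate 1. FN1, the fibronectin gene, was at 0.32 and did not pass (adjusted p = 0.37 in edgeR's test). POSTN had no count in any library. PDGFRA, MMP14, AXL, FN1, TNC, COL6A2, VCAN, COL5A1 and SPARC were chosen for mention after their values were seen.

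The epithelial side of the switch was read from 13 transcription and splicing factors, all tested, of which 6 rose and 2 fell (61.5% called, median 0.46). KLF4, a Krüppel-like factor of differentiated epithelium that is known to maintain CDH1, rose by 3.02 (76.5 ± 5.10 CPM with indomethacin and 9.40 ± 2.33 CPM in control, SD, n = 3 each). KLF5 rose by 1.03 and the epithelial splicing regulator ESRP1 by 0.99, with ESRP1 at 304 ± 8.36 CPM with indomethacin and 153 ± 6.72 CPM in control (SD, n = 3 each). OVOL1, which represses ZEB1 in other epithelia, rose by 1.63. The ETS factor gene EHF fell by 5.06 to 0.768 CPM with indomethacin, against 26.1 CPM in control. Its counts were 27, 6 and 12 with indomethacin and 340, 652 and 723 in control. Without indomethacin replicate 1 the fitted value was -5.74, on 6 and 12 counts. EHF entered the test through its control level, and its indomethacin counts are too few to size the fall. ESRP2 fell by 0.42. GRHL2, which opposes ZEB1, had a log2 fold change of 0.24 and did not pass (adjusted p = 0.062 in edgeR's test), though it did with upper-quartile scaling and with a filter of 1 CPM. OVOL1 and GRHL2 were chosen for mention after their values were seen.

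Of the 6 miR-200 host and precursor genes, 1 had enough counts to be tested. MIR200CHG, the host gene of miR-200c and miR-141, whose seeds are shown above, had 75, 107 and 66 counts in the indomethacin libraries and 33, 49 and 47 in the control libraries. All 3 indomethacin libraries lay above the control ones. Its level was 4.28 ± 0.920 CPM with indomethacin and 1.97 ± 0.311 CPM in control (SD, n = 3 each), a log2 fold change of 1.12 (SE 0.25, Benjamini-Hochberg adjusted p = 0.0017 with edgeR's quasi-likelihood test). ZEB1 and this host gene, textbook opponents, were both higher with indomethacin.

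E-cadherin works with catenins and nectins at the adherens junction. Of 12 such genes 11 were tested, 3 higher and 3 lower (54.5% called, median 0.12). NECTIN1, an adhesion receptor, rose by 1.54, AFDN, the nectin-binding protein afadin, by 1.31, and CTNNA1, the gene of alpha-catenin, by 0.54. NECTIN3 fell by 1.68, the vinculin gene VCL by 1.27 and CTNNB1, the gene of beta-catenin, by 0.77. CTNNB1 stood at 443 ± 16.6 CPM with indomethacin and 755 ± 41.0 CPM in control (SD, n = 3 each). VCL shares 1109 of 9992 exonic bases with AP3M1 on the other strand.

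EpCAM associates with claudin-7 and tetraspanins. Of the 5 genes on this list, all tested, 3 rose and 1 fell (80.0% called, median 1.05). TSPAN8, a tetraspanin, fell by 3.32 to 52.4 ± 4.13 CPM with indomethacin, against 522 ± 32.7 CPM in control (SD, n = 3 each). CLDN7 rose by 1.05 and FHL2, which binds the EpCAM intracellular domain, by 1.17. Of 9 genes that cut these adhesion proteins or tag E-cadherin for removal, all tested, 2 rose and 2 fell (44.4% called, median -0.17). The sheddase gene ADAM17 rose by 1.50, with 1323 of 10728 exonic bases shared with IAH1 on the other strand, while ADAM10 fell by 0.48. The gamma-secretase subunit gene NCSTN fell by 0.67.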

How the data were processed

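Total RNA of 6 AGS libraries was sequenced as pairs with a stranded kit after ribosomal RNA depletion, per the labels' protocols. The tools bcl2fastq, FastQC 0.11.7, cutadapt 1.16, HISAT2 2.1.0, SAMtools, featureCounts and DESeq2 and the build hg38 are named per the submitters' processing notes, without order. The strand setting, the treatment of reads mapping to several places and the annotation release are not given in the sources used here. Raw counts of 1 library fill each table the authors deposited, with exon coordinates and gene length, per the file headers. In each, the line of 1 gene was broken, and 3 of 60607 lines were left out.

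Genes were filtered with filterByExpr, scaled by TMM and fitted with edgeR 4.0.16 (R 4.3.3; quasi-likelihood test), group as the only term, with Benjamini-Hochberg adjustment over 17200 genes and a threshold of 0.05. The scripts were tested on simulated data. Levels are TMM-scaled CPM, divided by exon length in kilobases where genes are compared. Symbols came from a gene name table. The members and lists were chosen with earlier results of these data known. Besides the 10 members, up to 3 genes higher and 3 lower with the smallest adjusted p were named per list, as was any gene of a list with at most 4 tested. Some genes that this rule takes are not reported here. Chi-square per degree of freedom between libraries of 1 group was 6.99 to 21.9, more than sampling noise gives, and each library counts as a sample. Alternatives were DESeq2 1.42.0, limma-voom (limma 3.58.1), RLE and upper-quartile factors, library sizes without mitochondrially encoded genes, no filter, a filter of 1 CPM in 3 libraries, the replicate number as a block, raw counts in the ratios and each library left out.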

Additional observations from a re-analysis of the deposited data

How the results depend on the processing

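Each of the 6 tested members kept its direction and its call under each of the 14 alternatives to the edgeR fit, with an adjusted p of at most 0.00105 (TGFBI). The log2 fold changes ranged over 3.08 to 3.38 for SNAI1, 2.58 to 2.94 for ZEB1, 1.29 to 1.62 for CDH1, -3.82 to -3.09 for VIM, -2.15 to -1.81 for TGFBI and -0.79 to -0.56 for EPCAM. Of all genes, 5264 were higher and 5327 lower, 6124 and 4686 with upper-quartile factors, which moved the median log2 fold change of all genes to 0.16, and 5446 and 6276 with no filter. With the replicate number as a block, 5249 genes were higher and 5352 lower and 6 members were called, and no call among the named genes changed. Same-numbered samples deviated with correlations of 0.0233, 0.0117 and 0.132, the last being the largest of any pair. Indomethacin replicate 1 correlated best with control replicate 2 (0.131). Deviations within a group of 3 are tied to each other, so these values cannot decide whether same-numbered samples were paired. For the other genes followed, 904 gene and setting pairs kept call and direction, 30 lost the call and 2 gained it. The log2 fold change of FN1, which did not pass, ranged between -0.0629 (without indomethacin replicate 1) and 0.508 when single libraries were left out. The cause was not tested. Depth limits what can be said of SNAI2, TWIST1, ZEB2 and CDH2, and of the size of the fall of VIM, PDGFRB, TCF4, TGFB3 and EHF.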
